A study of Homo sapiens with 6 samples.

Results

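Cytosolic nucleic acid sensors and their adaptors are a set of 10 genes: RIGI, IFIH1, DHX58, MAVS, CGAS, STING1, TBK1, ZBP1, AIM2 and IFI16. The set was defined by gene name, with earlier results of these data known, and all 10 were found among the 18417 genes that have a probe set annotated to a single gene symbol. Each was measured by exactly 1 such probe set, so no choice between probe sets entered their values. They were measured in RL, an established human B-cell lymphoma line carrying t(14;18), on Affymetrix Gene 1.0 ST arrays, which read each transcript with a set of probes. The treated cells, on 3 arrays, received LY317615 (enzastaurin, an inhibitor aimed at the beta form of protein kinase C) for 48 h. The labels print its dose as 2.5 mM, a unit that could not be checked here. Untreated cells were hybridised to 3 further arrays, which also carry 48 h in their titles, and no vehicle is named for them. Both groups came from the same line in the same medium, so every value below describes 1 cell line under 1 dose at 1 time.

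Cells read foreign or misplaced nucleic acid in the cytosol with dedicated proteins. RIG-I (RIGI) and MDA5 (IFIH1) bind double-stranded RNA and signal through the mitochondrial adaptor MAVS, while LGP2 (DHX58), the remaining RIG-I-like receptor, lacks the signalling domains and tunes the other two. DNA is read by cGAS (CGAS), which makes a cyclic dinucleotide that activates STING (STING1), and both branches meet at the kinase TBK1, which activates the interferon-inducing factor IRF3. ZBP1 binds Z-form nucleic acid and can start necroptosis, AIM2 assembles an inflammasome on DNA, and IFI16, a relative of AIM2, binds DNA mainly in the nucleus. Several of these sensors are themselves induced by interferon in many cell types.

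Under LY317615 the sensors went different ways. RNA for the RIG-I-like receptors RIGI, IFIH1 and DHX58 and for ZBP1 rose, by 1.798-, 1.51-, 1.26- and 1.48-fold. RNA for AIM2 fell 2.92-fold and RNA for CGAS 1.37-fold. The adaptors MAVS and STING1, the kinase TBK1 and the DNA-binding IFI16 did not pass the test. In all, 4 of the 10 genes were called higher, where 14.2% of all genes were, and 2 were called lower, where 21.4% of all genes were, at an adjusted p under 0.05 in limma with Benjamini-Hochberg adjustment over all genes. Since the set was chosen with results known, these counts describe it and are no independent evidence. The groups did not overlap in these 6 genes and overlapped in the other 4, against 49.8% of all genes without overlap. The median change of the 10 genes was 0.17 on the log2 scale, and that of all genes was 0.02. Of all called genes 60.1% were lower, and with the array medians set to one value 71.4% were; the 10 genes kept 4 higher and 2 lower calls there.

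**Figure D1:**
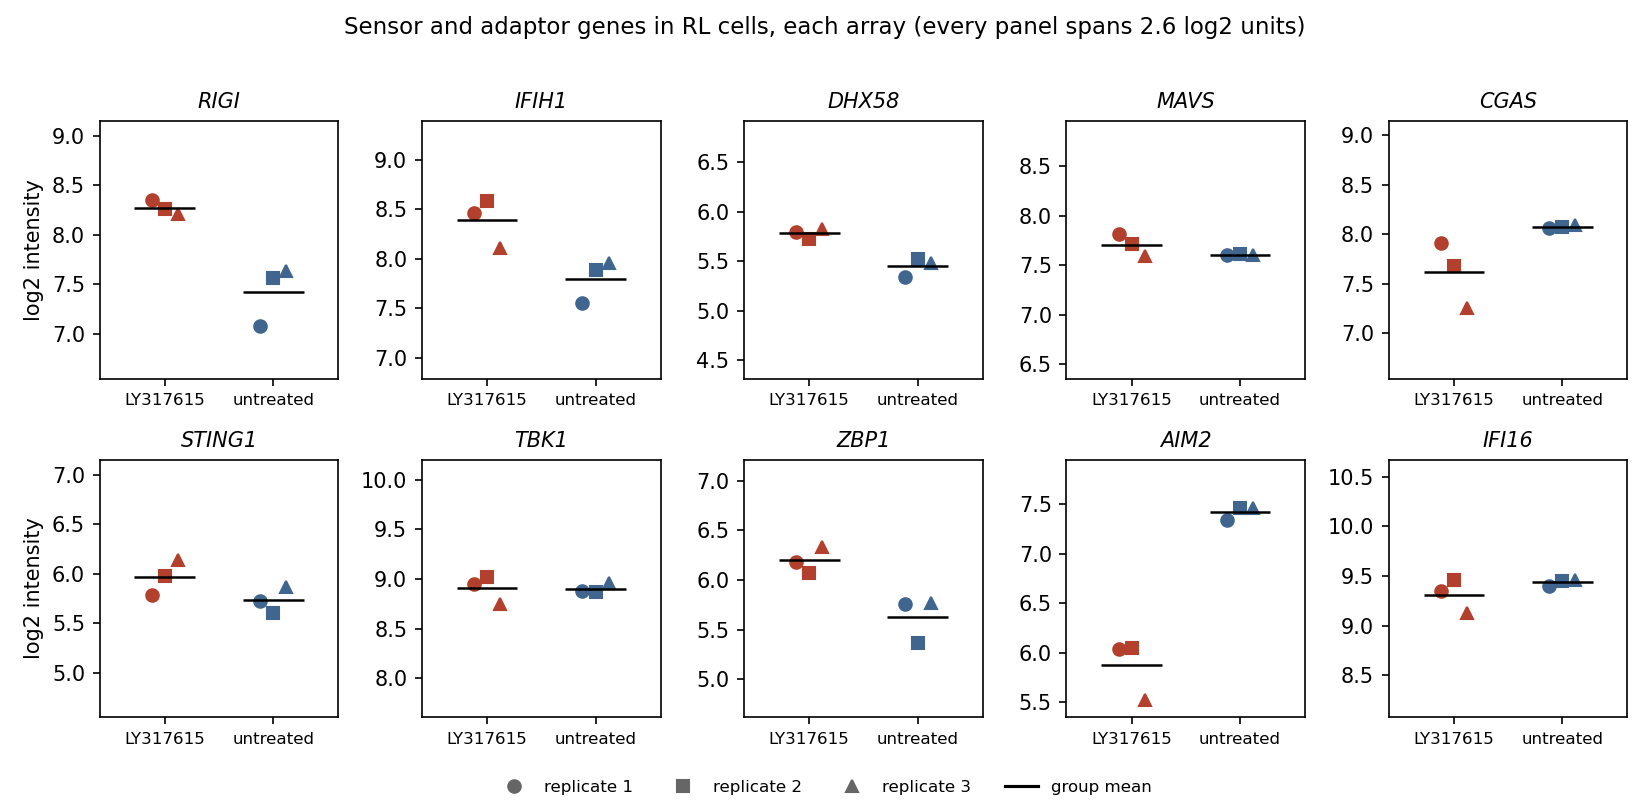
Log2 intensity of the 10 sensor and adaptor genes on each array, LY317615 at the left and untreated at the right of each panel, with a symbol for each replicate and a bar at the group mean; every panel spans the same log2 range but is centred on its own gene. The 3 LY317615 arrays lie above all untreated arrays for RIGI, IFIH1, DHX58 and ZBP1 and below them for AIM2 and CGAS.

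A few facts of the arrays bear on these values. Median probe-set intensity was 60.01 to 61.45 on the LY317615 arrays and 56.75 to 58.2 on the untreated arrays. The array weight that limma estimated was 0.376 for LY317615 replicate 3 and at least 1.04 for each other array. LY317615 replicate 3 was the lowest of the 3 treated arrays in 7 of the 10 sensor genes (41.8% of all genes). Untreated replicate 1 was the lowest untreated array in 6 of the 10 (34.3% of all genes). B-cell markers matched the label: the 5 analysed of 6 (MS4A1, CD22, CD79A, CD79B and PAX5) ranked at percentiles 95.2 to 98.9 of all genes in untreated cells. Of these, 4 fell and 0 rose with LY317615 (the same counts at an unadjusted p under 0.05), and 3 fell after cyclic loess scaling, which removes trends with intensity. The 6 T-cell markers ranked no higher than percentile 39.6 and the 7 myeloid markers no higher than 30.5. Summed linear intensity was 198 to 228 on LY317615 arrays and 170 to 179 on untreated arrays for the T-cell list, and 187 to 224 against 155 to 164 for the myeloid list. In each of these lists 2 genes rose and 0 fell in limma (3 and 5 were higher and 0 lower at an unadjusted p under 0.05). The part of these differences in the results below was not tested. In RNA from whole cultures, fewer cells with a transcript and less of it per cell cannot be told apart. Replicates are described as independent, with no mention of separate cultures, so the p-values measure only how far these arrays differ, and that spread may be technical.

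The RIG-I-like receptors rose together. RIGI had log2 intensities of 8.35, 8.26 and 8.21 in LY317615-treated cells, against 7.08, 7.56 and 7.63 in untreated cells. All treated arrays lay above all untreated arrays, and untreated replicate 1 was well below the other two untreated arrays. The change was 0.85 ± 0.14 (SE, adjusted p = 0.00176, limma), and it was 0.67 without untreated replicate 1, still past the threshold (adjusted p = 0.00198). RIG-I recognises short double-stranded RNA with a triphosphate end.

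IFIH1, whose product MDA5 binds long double-stranded RNA, had log2 intensities of 8.47, 8.59 and 8.11 in LY317615-treated cells and 7.55, 7.88 and 7.96 in untreated cells. Here the groups came close: LY317615 replicate 3 was only slightly above untreated replicate 3. The change was 0.59 ± 0.14 (SE, adjusted p = 0.0124, limma). DHX58 ranked at percentile 36.5 of all genes in untreated cells, in the range of the highest-ranked T-cell marker, CD8A (39.6), which rose by 0.40. It had 5.79, 5.73 and 5.83 in LY317615-treated cells, against 5.35, 5.53 and 5.48 in untreated cells, with both groups tight and apart. Its change was the smallest of the 3 receptors, 0.33 ± 0.08 (SE, adjusted p = 0.0112, limma). After cyclic loess scaling it was 0.19 and no longer past the threshold (adjusted p = 0.0863).

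MAVS, the adaptor that RIG-I and MDA5 share on the mitochondrial membrane, had log2 intensities of 7.81, 7.72 and 7.60 in LY317615-treated cells. In untreated cells it had 7.61, 7.61 and 7.60, almost without spread. The groups overlapped through LY317615 replicate 3, and the change of 0.10 ± 0.08 (SE) did not pass (adjusted p = 0.337, limma). The 95% confidence interval of the fold ran from 0.948 to 1.22. Without LY317615 replicate 1 the change was 0.05. After cyclic loess scaling it was 0.21 and passed (adjusted p = 0.0392).

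The cGAS-STING branch showed a lower sensor and no call for the adaptor. CGAS had log2 intensities of 7.91, 7.68 and 7.25 in LY317615-treated cells and 8.06, 8.07 and 8.09 in untreated cells. The treated arrays were spread widely (SD 0.33) and the untreated ones hardly at all (SD 0.015), but every treated array was below every untreated one. The change was -0.46 ± 0.15 (SE, adjusted p = 0.0365, limma). The call was weak: without LY317615 replicate 3 the change was -0.28 (adjusted p = 0.049), and the call was lost without LY317615 replicate 2 (adjusted p = 0.0525), without untreated replicate 1, 2 or 3 (0.0799, 0.0797 and 0.0841) and after cyclic loess (-0.33, adjusted p = 0.0859).

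STING1, the membrane protein of the endoplasmic reticulum that receives the cGAS product, had log2 intensities of 5.79, 5.98 and 6.14 in LY317615-treated cells, against 5.73, 5.60 and 5.87 in untreated cells. The groups overlapped, and the change of 0.24 ± 0.11 (SE) did not pass (adjusted p = 0.117, limma), with a 95% confidence interval of the fold from 0.995 to 1.399. With 1 array left out it ran from 0.15 (without LY317615 replicate 3) to 0.33 (without LY317615 replicate 1, adjusted p = 0.0516). After cyclic loess it was 0.11, and it passed in none of these cases. TBK1, the kinase downstream of both adaptors, had 8.95, 9.02 and 8.74 in LY317615-treated cells and 8.88, 8.87 and 8.96 in untreated cells. Its arrays were intermixed. The change was 0.004 ± 0.090 (SE, adjusted p = 0.978, limma), with a 95% confidence interval of the fold from 0.871 to 1.15. It was -0.05 with the array medians set to one value and 0.21 after cyclic loess (adjusted p = 0.0594), neither of them past the threshold.

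ZBP1, the sensor of Z-form nucleic acid, had log2 intensities of 6.19, 6.07 and 6.34 in LY317615-treated cells, against 5.76, 5.36 and 5.77 in untreated cells. The groups did not overlap, and untreated replicate 2 was the lowest array. The change was 0.57 ± 0.12 (SE, adjusted p = 0.00755, limma). It stayed past the threshold with each array left out in turn, between 0.43 and 0.64, and after cyclic loess (0.44, adjusted p = 0.0193). ZBP1 ranked at percentile 39.5 in untreated cells, also beside CD8A and not far above CD14 (30.5), the highest-ranked myeloid marker, which rose by 0.50. The part of low intensity in the DHX58 and ZBP1 results was not tested.

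AIM2 and IFI16, both of the PYHIN family, gave different calls. AIM2 had log2 intensities of 6.04, 6.05 and 5.53 in LY317615-treated cells and 7.34, 7.46 and 7.46 in untreated cells. The gap between the groups was far wider than the spread within either. The change of -1.55 ± 0.14 (SE, adjusted p = 0.000101, limma) was the largest of the 10 genes in size, and it was -1.38 without LY317615 replicate 3. IFI16 had 9.35, 9.46 and 9.12 in LY317615-treated cells, against 9.40, 9.45 and 9.46 in untreated cells. The groups overlapped, and the change of -0.12 ± 0.10 (SE, adjusted p = 0.342, limma) had a 95% confidence interval of the fold from 0.792 to 1.07. It was -0.03 without LY317615 replicate 3 and 0.095 after cyclic loess, also not called. The difference between the 2 genes' changes was not tested.

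**Figure D2:**
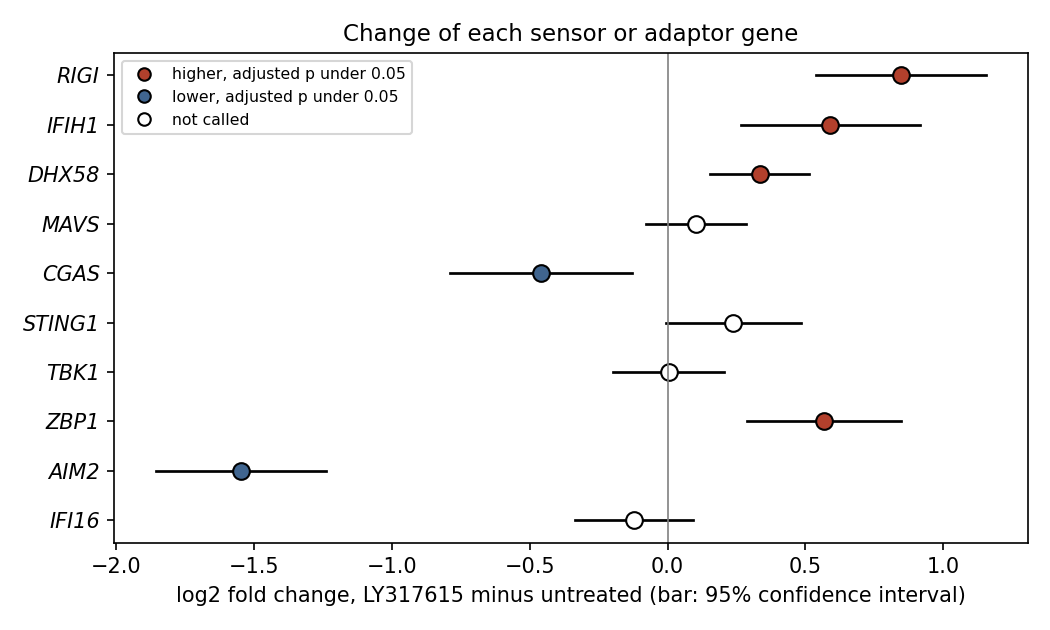
Log2 fold change, LY317615 minus untreated, of each sensor or adaptor gene as a point with its 95% confidence interval from limma; filled points passed an adjusted p of 0.05 and open points did not. RIGI at 0.85 and AIM2 at -1.55 mark the ends, and the intervals of MAVS, STING1, TBK1 and IFI16 hold 0.

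**Figure D3:**
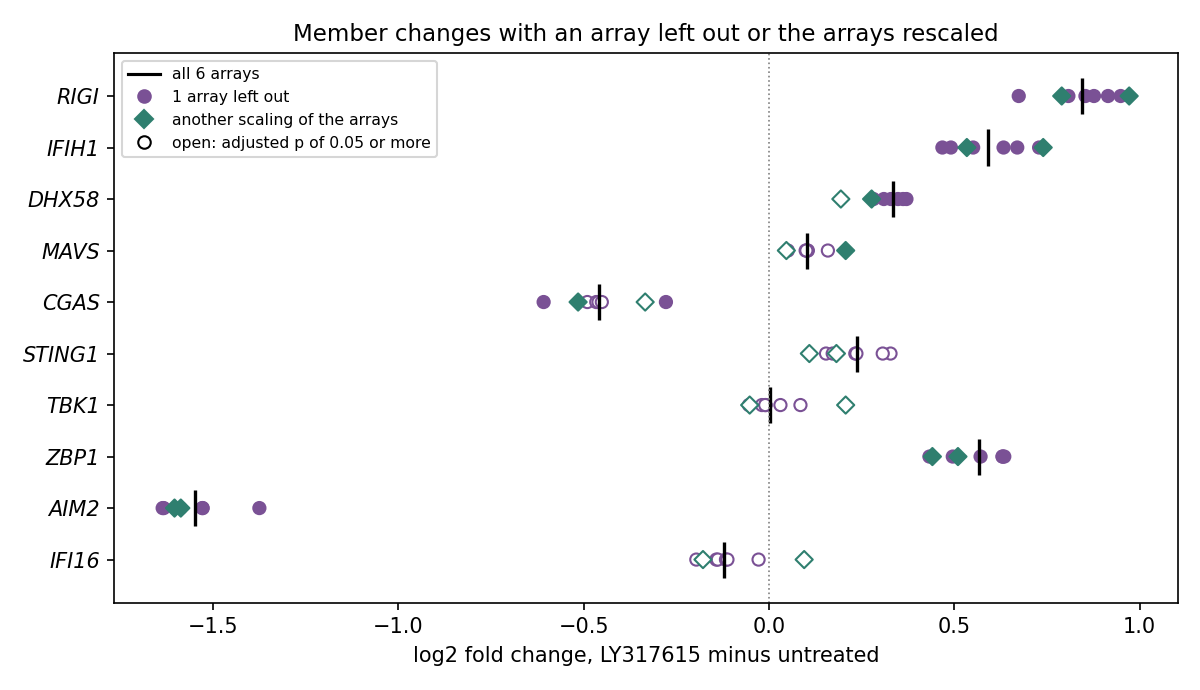
The same log2 fold changes with all 6 arrays (black line), with 1 array left out (circles) and with the array medians set equal or after cyclic loess (diamonds); open symbols have an adjusted p of 0.05 or more. RIGI, IFIH1, ZBP1 and AIM2 passed in every case shown, CGAS and DHX58 did not, and MAVS passed only after cyclic loess.

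Because RIGI, IFIH1, DHX58 and ZBP1 moved together, the stretches before the members' annotated starts were searched for the interferon-stimulated response element (ISRE), the site bound by interferon-regulated IRF and STAT complexes. RefSeq promoter windows (GRCh38.p14, 250 bases before to 50 after a start) were at hand for 6 of the 10 genes: RIGI, IFIH1, MAVS, TBK1, AIM2 and IFI16. IFI16 has 2 windows, which makes 7. DHX58, CGAS, STING1 and ZBP1 were not matched. The motif was searched on both strands as GAAANNGAAA, found in 3.57% of 35116 windows of the table, and with a 1-base spacing as GAAANGAAA, found in 3.12% and added after the letters of the windows had been seen. The gamma-activated site TTCNNNGAA, found in 7.66% of windows, was in 0 of the 7. The 4 windows that hold a match of either spacing are shown from 5′ to 3′ on the gene's strand, with the matches in capitals. They are shown because they belong to 2 genes that rose, 1 that fell and 1 that was not called. RIGI and IFI16 match only the 1-base spacing, which was chosen with these windows already seen.
RIGI, chr9:32526147-32526446, minus strand: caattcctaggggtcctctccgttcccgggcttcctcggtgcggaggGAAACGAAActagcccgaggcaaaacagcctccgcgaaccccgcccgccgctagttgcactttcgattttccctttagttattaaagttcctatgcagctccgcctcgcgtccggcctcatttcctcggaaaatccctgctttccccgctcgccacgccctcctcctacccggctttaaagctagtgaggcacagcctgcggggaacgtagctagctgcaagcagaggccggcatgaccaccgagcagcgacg
IFIH1, chr2:162318635-162318934, minus strand: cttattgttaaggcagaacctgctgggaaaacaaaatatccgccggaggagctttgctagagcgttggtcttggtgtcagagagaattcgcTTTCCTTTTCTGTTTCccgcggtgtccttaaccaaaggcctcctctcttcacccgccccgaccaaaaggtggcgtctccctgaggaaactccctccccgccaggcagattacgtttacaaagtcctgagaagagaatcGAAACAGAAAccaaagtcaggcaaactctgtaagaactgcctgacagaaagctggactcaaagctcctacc
AIM2, chr1:159076717-159077016, minus strand: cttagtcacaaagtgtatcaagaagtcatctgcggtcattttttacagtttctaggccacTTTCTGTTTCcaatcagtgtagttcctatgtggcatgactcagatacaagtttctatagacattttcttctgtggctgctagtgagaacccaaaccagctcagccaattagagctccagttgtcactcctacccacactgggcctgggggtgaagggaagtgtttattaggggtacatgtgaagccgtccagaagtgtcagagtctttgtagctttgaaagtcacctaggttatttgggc
IFI16, chr1:159009657-159009956, plus strand: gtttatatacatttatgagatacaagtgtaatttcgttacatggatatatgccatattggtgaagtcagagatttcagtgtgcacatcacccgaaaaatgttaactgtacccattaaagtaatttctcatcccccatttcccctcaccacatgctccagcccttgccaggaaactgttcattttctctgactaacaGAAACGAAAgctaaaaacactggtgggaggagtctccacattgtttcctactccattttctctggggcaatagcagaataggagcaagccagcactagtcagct

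In RIGI the match lies 203 to 195 bases before the start and has the 1-base spacing. IFIH1 holds 3 matches with the 2-base spacing, of which 2 overlap each other at 159 to 144 bases before the start and 1 lies 21 to 12 bases before it. AIM2, which fell, holds 1 match with the 2-base spacing at 190 to 181 bases before the start. IFI16, not called, holds 1 match with the 1-base spacing at 54 to 46 bases before the later of its 2 starts. The windows of MAVS, TBK1 and the earlier start of IFI16 hold none of these letters. With the 2-base spacing alone, the matches are in IFIH1, which rose, and AIM2, which fell. The windows of AIM2 and IFI16 are at transcript starts inside the longest annotated extent of those genes, and which start RL cells use was not measured.

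**Figure D4:**
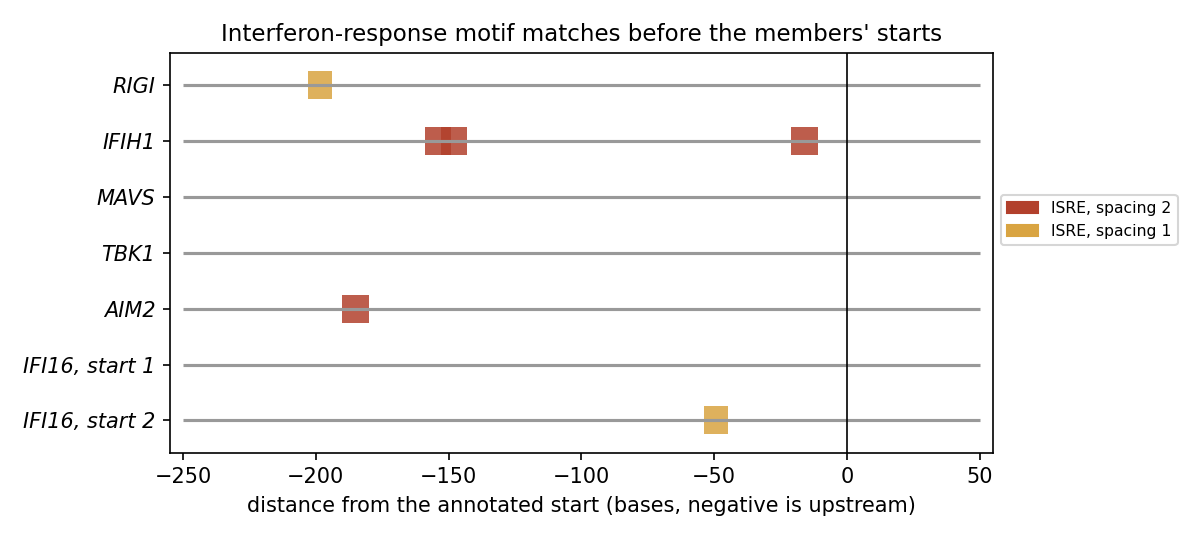
Positions of matches to the ISRE letters of either spacing in the 7 promoter windows, as distance in bases from the annotated start. Each grey line is a window and each box a match, coloured by its spacing. The 1-base spacing, the only one matched in RIGI and IFI16, was added after the windows had been seen. IFIH1 carries 3 matches, RIGI, AIM2 and the later start of IFI16 carry 1 each, and MAVS, TBK1 and the earlier start of IFI16 carry none.

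The genes around the sensors were followed in 8 lists with 112 distinct analysed genes besides the members, of which 21 rose and 26 fell (limma, adjusted p under 0.05). Their median log2 fold change was -0.03. Of all genes, 14.2% were called higher and 21.4% lower, and each list count below stands beside these shares. The lists were described by counts and medians and not tested as lists.

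Other RNA sensors and effectors, many of them known to be induced by interferon, were called in one direction. Of 13 genes analysed, 7 rose and 0 fell in limma (9 higher and 0 lower at an unadjusted p under 0.05), with a median of 0.53. IFIT1, which binds RNA without a mature host cap, had log2 intensities of 10.26, 10.33 and 10.12 in LY317615-treated cells and 8.35, 8.87 and 9.06 in untreated cells, a change of 1.48 ± 0.16 (SE). OAS3 and OAS1, which make a second messenger on binding double-stranded RNA, rose by 1.39 ± 0.14 and 1.22 ± 0.12. EIF2AK2, the kinase PKR that halts translation on double-stranded RNA, rose by 0.77 ± 0.08. Untreated replicate 1 was the lowest untreated array, and LY317615 replicate 3 the lowest treated array, in all 7 genes that rose. In this list OASL (-0.18, adjusted p = 0.268) and IFIT2 (0.33, adjusted p = 0.0868), singled out after their values were seen, did not pass.

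Regulators of the RIG-I-like receptors went both ways. Of 18 genes, 3 rose and 7 fell, with a median of -0.07; after cyclic loess the counts were 4 and 2. DDX60, an interferon-induced helicase proposed as a RIG-I cofactor, had log2 intensities of 8.80, 8.88 and 8.63 in LY317615-treated cells, against 7.19, 7.46 and 7.55 in untreated cells, a change of 1.37 ± 0.11 (SE). PCBP2, which promotes the breakdown of MAVS, rose by 0.63 ± 0.07. TOMM70, a mitochondrial import receptor that couples MAVS to TBK1, changed by -0.46 ± 0.07, and DHX15, an RNA helicase that works with MAVS, by -0.42 ± 0.07. After cyclic loess they were at -0.23 and -0.21, both still called. TRIM25, the ubiquitin ligase of RIG-I, named after its value was seen, rose by 0.24 ± 0.07 (adjusted p = 0.0299). With the array medians set to one value, only 2 genes of this list were called higher. These were DDX60 and PCBP2, so the TRIM25 call was lost there.

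Regulators of cGAS and STING were mostly lower. Of 17 genes, 9 fell and 1 rose, with a median of -0.29; after cyclic loess the counts were 7 lower and 3 higher and the median -0.10. INSIG1, a sterol-regulated protein of the endoplasmic reticulum that also assists STING ubiquitination, changed by -1.50 ± 0.09 (SE). BANF1, a chromatin protein that keeps cGAS off nuclear DNA, changed by -0.46 ± 0.08 on its brighter probe set, while its other probe set read -0.13 (adjusted p = 0.322). NPC1, the lysosomal cholesterol transporter that aids STING turnover, changed by -0.49 ± 0.09. After cyclic loess BANF1 was at -0.24 and NPC1 at -0.29, both still called. The gene that rose was SAMHD1, whose product breaks down deoxynucleotides. It had log2 intensities of 9.98, 10.09 and 9.90 in LY317615-treated cells and 9.34, 9.45 and 9.49 in untreated cells, a change of 0.56 ± 0.08.

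The kinase and transcription factor axis below the adaptors was split. Of 13 genes, 3 rose and 4 fell, with a median of 0.11; after cyclic loess the counts were 6 and 4. TANK and TBKBP1, scaffolds that hold TBK1, changed by -0.53 ± 0.09 and -0.59 ± 0.08 (SE), and the NF-kB pathway genes CHUK and RELA by -0.55 ± 0.08 and -0.45 ± 0.09. AZI2 (0.245, adjusted p = 0.0609) and OPTN (0.18, adjusted p = 0.194) of the same list, named after their values were seen, did not pass. After cyclic loess TANK was at -0.35, CHUK at -0.34 and RELA at -0.24, all still called. NFKB1, an NF-kB subunit named after its value was seen, went the other way and rose by 0.36 ± 0.07 (adjusted p = 0.00628), and IKBKB (0.17) and IKBKG (0.04) were not called. IKBKE, the close relative of TBK1, rose by 0.33 ± 0.09 (adjusted p = 0.0159, and 0.0652 without untreated replicate 3). IRF7, an interferon-induced amplifier of interferon genes, rose by 0.30 ± 0.08 (adjusted p = 0.0141). IRF3, the direct substrate of TBK1, had 8.23, 8.25 and 8.01 in LY317615-treated cells, against 8.12, 7.98 and 8.07 in untreated cells. Its groups overlapped and its change of 0.11 ± 0.09 did not pass (adjusted p = 0.363), although it was 0.26 after cyclic loess (adjusted p = 0.0269).

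The PYHIN and inflammasome genes around AIM2 gave few calls. Of 14 PYHIN and inflammasome genes, 2 rose and 0 fell in limma (2 and 0 also at an unadjusted p under 0.05), beside 14.2% of all genes higher and 21.4% lower, with a median of 0.06. In untreated cells 9 of the 14 ranked below percentile 20, where a fall could hardly be seen. GSDMD, the pore-forming protein that inflammasome caspases cleave, had log2 intensities of 6.72, 6.92 and 6.83 in LY317615-treated cells and 6.31, 6.23 and 6.35 in untreated cells, a change of 0.53 ± 0.08 (SE). NAIP, a receptor of bacterial proteins with near-identical copies that can share its probes, rose by 0.34 ± 0.09, a call lost without untreated replicate 3 (0.30, adjusted p = 0.064). PYCARD, the adaptor that AIM2 binds, and CASP1, the caspase it recruits, were looked at afterwards as direct partners and did not pass, at -0.07 ± 0.09 (adjusted p = 0.534) and -0.03 ± 0.12 (adjusted p = 0.875). PYCARD ranked at percentile 67.6 in untreated cells and CASP1 at 4.14.

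Among 7 genes of the ZBP1 and necroptosis list, 2 rose and 0 fell in limma (3 and 0 at an unadjusted p under 0.05), with a median of 0.11. The counts were 1 higher and 0 lower with the array medians set to one value. After cyclic loess they were 3 higher and 1 lower. CFLAR, a regulator of caspase-8, rose by 0.47 ± 0.09 (SE) on its brighter probe set, while its other probe set read 0.24 (adjusted p = 0.0842). MLKL, the executioner of necroptosis, rose by 0.28 ± 0.09 (adjusted p = 0.0342). That call was lost under both other scalings (0.23 and 0.16), when the variance prior followed intensity (0.28) and with any array but LY317615 replicate 1 left out (0.22 to 0.32). RIPK3, the kinase that ZBP1 binds, was looked at afterwards and did not pass (-0.17 ± 0.08, adjusted p = 0.114).

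Of 13 genes that clear or modify self nucleic acid, 3 rose and 4 fell, with a median of -0.08. After cyclic loess 5 were higher and 2 lower, with a median of 0.12. SAMHD1 is also in this list. PNPT1 and SUPV3L1, the mitochondrial RNA-degrading pair whose loss lets mitochondrial double-stranded RNA reach MDA5, changed by -0.45 ± 0.07 and -0.35 ± 0.07 (SE); after cyclic loess PNPT1 was at -0.23 and still called, and SUPV3L1 at -0.14 and not called (adjusted p = 0.17). RNASET2, a lysosomal RNase, rose by 0.45 ± 0.10. ADAR, which edits double-stranded RNA and so limits MDA5 activation, is in 3 of the lists, was named after its value was seen and had a change of 0.18 ± 0.07 that did not pass (adjusted p = 0.0759), although its groups did not overlap.

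The list of interferon and chemokine genes showed few calls. Of 20 genes, 1 rose and 2 fell in limma (3 higher and 2 lower at an unadjusted p under 0.05), with a median of -0.02. Of all genes, 14.2% were called higher and 21.4% lower. In untreated cells 14 of the 20 ranked below percentile 20, where a fall could hardly be seen. IFNB1, the interferon gene most directly induced by IRF3, had low intensities of 3.28, 3.03 and 3.43 (log2) in LY317615-treated cells and 3.44, 3.28 and 3.36 in untreated cells. The groups overlapped, and its change was -0.12 ± 0.11 (SE, adjusted p = 0.424). The chemokine gene CXCL10, commonly induced by interferon, had 4.65, 4.58 and 4.58 in LY317615-treated cells, against 5.78, 5.90 and 5.68 in untreated cells. It fell, with a change of -1.18 ± 0.08 (adjusted p = 3.45e-05), while IFIT1 and RIGI rose. CXCL11 changed by -0.71 ± 0.09. CCL5 rose by 0.36 ± 0.10 (adjusted p = 0.0208), a call lost without LY317615 replicate 1 (0.28), without untreated replicate 2 (0.29) and after cyclic loess (0.22). No detection calls were given, so it is not known whether the dim interferon genes were above background.

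**Figure D5:**
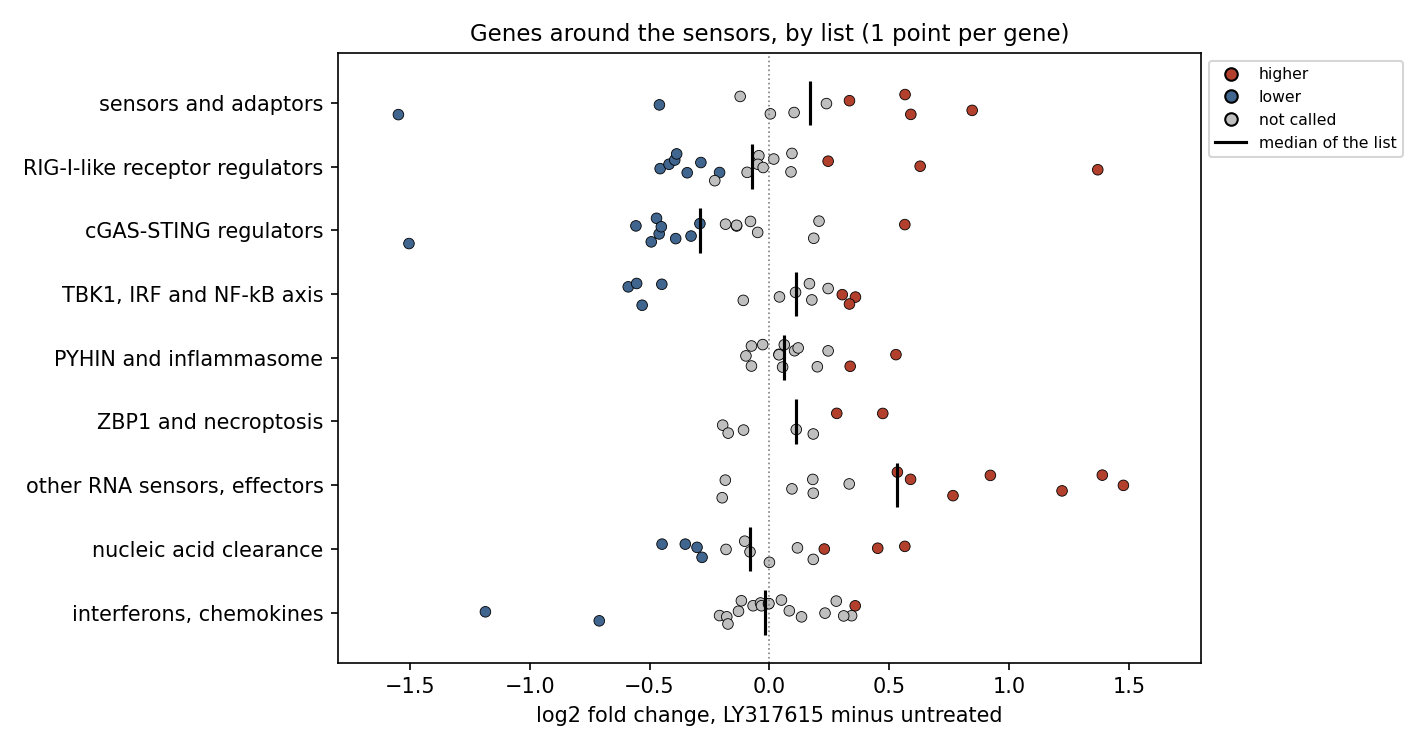
Log2 fold change, LY317615 minus untreated, of every analysed gene in the sensor list and the 8 lists around it, 1 point per gene, coloured where it passed an adjusted p of 0.05, with the list's median as a black line; vertical scatter within a row has no meaning. The other RNA sensors have the highest median, 0.53, and the cGAS-STING regulators the lowest, -0.29.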

How the data were processed

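The deposited values are probe-set intensities on a linear scale, made by the authors; the submitters' processing notes name GCOS 1.4, Expression Console from Affymetrix and RMA, in an order not given in the sources used here. Log2 was taken of the deposited intensities with no constant, since all 33297 were above 0, and no scaling was added. Of the probe sets, 19460 had 1 gene symbol, 1754 several and 12083 none; the brightest of a gene's single-symbol probe sets was kept, which left 18417 genes. All genes were fitted together in limma 3.58.1 (R 4.3.3, eBayes without trend, two-sided, Benjamini-Hochberg over all genes, threshold 0.05), and the code was tested on simulated data. SDs are over 3 arrays, and SEs and 95% intervals come from limma. Precision is limited by there being 6 arrays.

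The members, gene lists and rules were chosen with earlier results of these data known. Genes named by rule are all 10 members and, from each list, up to 4 genes that passed, by smallest adjusted p, plus IFNB1, IRF3, IRF7 and IKBKE. CD8A, CD3E, CD14 and CSF1R come from the other marker lists. Other genes, such as TRIM25, NFKB1 and PYCARD, were named afterwards. Genes listed but absent from the single-gene probe sets used, such as TREX1 and RIPK1, were not analysed here. Promoter windows are RefSeq's. Figures used matplotlib 3.10.9. The alternatives tried were other scalings, a block on replicate number, each array left out, other variance priors, array weights, leaving out the dimmest 30% of genes, means of probe sets and stricter thresholds.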

Additional observations from a re-analysis of the deposited data

How the results depend on the processing

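RIGI, ZBP1 and AIM2 kept their direction and their call under every alternative run. With a threshold of 0.01, 2 members were higher (RIGI, ZBP1) and 1 lower (AIM2), and IFIH1 (0.59), DHX58 (0.33) and CGAS (-0.46) were lost. Requiring a log2 change of at least 0.5 left 3 higher members, 1 lower member and 18 of the 47 called pathway genes. After cyclic loess 1 member was lower; DHX58 (0.19) and CGAS (-0.33) were lost, MAVS (0.21) was gained, and IFI16 turned to 0.095 without a call. TBK1 turned to -0.052 with the array medians set equal, also without a call. With 1 array left out, the number of lower members was 1 to 2, CGAS ranged from -0.61 to -0.28 and TBK1 from -0.054 to 0.085. Same-numbered arrays showed little shared deviation over all genes (correlations of -0.02, 0.09 and 0.07). The labels do not say whether a number marks a shared culture, and these correlations cannot settle it. With the replicate number as a block, 4 members were higher, 2 lower and 44 pathway genes called. The block changed no call of a member or of a gene named by rule. Genes named afterwards, such as TRIM25 and NFKB1, were not followed gene by gene under the alternatives. Of all called genes, 53.5% were lower after cyclic loess. Signal over background limits the dim genes, since no detection calls were available.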

Other observations

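Of the B-cell markers, CD22 changed by -1.16, MS4A1 by -0.81, PAX5 by -0.48 and CD79A by -0.28, all past the threshold in limma; the call of CD79A was lost after cyclic loess (-0.07) and without untreated replicate 3 (-0.27). Among the markers of other cell types, named by the same rule, CD8A rose by 0.40 ± 0.08 (SE, adjusted p = 0.0046, limma), CD14 by 0.50 ± 0.10 (0.00398), CD3E by 0.45 ± 0.13 (0.0234) and CSF1R, whose groups overlapped, by 0.37 ± 0.13 (0.0482). The call of CD3E was lost without LY317615 replicate 3 and without untreated replicate 1 or 3 (0.34 to 0.40). That of CSF1R was lost without LY317615 replicate 1 or 3 and without untreated replicate 2 or 3 (0.28 to 0.35), with the array medians set to one value (0.32) and with a robust variance prior (0.37). Both were lost after cyclic loess (0.31 and 0.24).

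Over the genes that had both an array value and a promoter window, the ISRE letters GAAANNGAAA were in a window of 4.72% of 1908 genes called higher, 4.14% of 3288 called lower and 3.99% of 9043 not called. The 1-base spacing was in 4.77%, 2.89% and 3.93% of them. These shares are a description and were not tested.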
